A study of Mus musculus with 10 samples.

Results

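Fatty acid uptake and mitochondrial oxidation are represented here by 35 genes, chosen by gene name from a count table of 15883 genes: 7 of uptake at the cell surface, 7 of activation and the carnitine shuttle, 13 of beta-oxidation, 3 of electron transfer and 5 thioesterases and uncoupling proteins. All 35 passed the filter on low counts, as did 13338 genes in all. Muscle takes fatty acids from the blood, activates them to acyl-CoA, carries them into mitochondria on carnitine and shortens them by beta-oxidation. The route is known to carry most of the energy supply of resting and fasted muscle, and its genes are textbook targets of the nuclear receptors PPAR and ERR with the coactivator PGC-1alpha. Malonyl-CoA, which blocks entry into mitochondria at carnitine palmitoyltransferase 1, is the main brake on it.

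Transcripts were counted in biceps femoris, a muscle of the hind leg, in 5 male mice with a Zfp407 transgene and 5 wild-type males. All were C57BL/6J, 5 weeks old, kept on chow and without food for 16 hours overnight, so every level here is that of fasted muscle. Zfp407 encodes a zinc finger protein, and the title of the series ties its overexpression to glucose homeostasis; the sources used here do not give the promoter of the transgene. Each column of counts is known by its group and a number but could not be tied to a single mouse, and a number shared by 2 columns pairs nothing.

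Libraries held 15162400 to 19047834 counts in the transgenic group and 13530367 to 17814900 in wild type. Levels are CPM, the counts scaled by edgeR to the TMM-adjusted library size. Zfp407 itself stood at 317 to 616 CPM in transgenic and 21.0 to 25.7 CPM in wild-type libraries, as labelled. Of all counts, Lars2, Gm15564 and Gm15662 together made up 9.62% to 17.3% in transgenic and 14.3% to 33.9% in wild-type libraries. The tissue label fits the fast fibre genes, whose summed level was 78154 to 100874 CPM in transgenic libraries and 83070.4 to 109736 CPM in wild-type libraries. Slow fibre genes summed to 283 to 1064 CPM in transgenic libraries and 175 to 1737 CPM in wild-type libraries, a wide range within each group. Of other cell types, 19 hepatocyte markers summed to 591 to 6715 CPM in transgenic libraries and 199 to 377 CPM in wild-type libraries, with 16 called higher. Every transgenic library lay above every wild-type library in that sum, and Alb, the most abundant of these markers, averaged 924 ± 1199 CPM in transgenic and 66.9 ± 30.8 CPM in wild-type libraries (SD, n = 5 each). Adipocyte markers summed to 1924 to 3085 CPM in transgenic libraries and 1899 to 3438 CPM in wild-type libraries. Most of that sum was a single gene, Car3. It averaged 1805 CPM of a mean sum of 2343.5 CPM in transgenic libraries and 1904 of 2522 CPM in wild-type libraries, so the sum mainly follows Car3. Endothelial markers summed to 332 to 426 CPM in transgenic libraries and 377 to 420.3 CPM in wild-type libraries, and no gene was called in either list. Transgenic library 3 stands apart in base composition, as described with its values further on.

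No gene of the fatty acid oxidation route was called as changed in transgenic muscle. The largest fold changes were those of Cpt1a, the liver-type carnitine palmitoyltransferase, at 0.64 ± 0.21, and Ucp2, an uncoupling protein, at 0.56 ± 0.16 (log2, SE, transgenic over wild type). None of the 35 genes passed an adjusted p of 0.05 in edgeR's quasi-likelihood test, where 5.33% of all 13338 genes tested did. An unadjusted p under 0.05 was reached by 2 of them, Ucp2 and Cpt1a, against 18.1% of all genes. DESeq2 called 1 of the 35, Ucp2, where it called 7.9% of all genes. In none of the 35 did the transgenic libraries lie wholly above or below the wild-type libraries, against 8.04% of all genes tested.

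Log2 fold changes, transgenic over wild type, ran from -0.25 for Mlycd to 0.64 for Cpt1a, 21 above and 14 below 0. Their median was 0.050, beside 0.00273 for all genes tested, and the median size without sign was 0.10, beside 0.17. A missing call does not show equal levels, so the 95% interval of each fold change matters more. That interval lay within 1.5-fold in either direction for 27 of the 35 genes, or 77.1%, and for 52.9% of all genes tested. The median SE was 0.15 for the 35 genes and 0.17 for all genes tested. Interval width depends on precision, so these shares do not show the route to be unusually stable. The genes whose interval reached past 1.5-fold were Lpl, Fabp3, Cpt1a, Mlycd, Etfb, Acot1, Acot2 and Ucp2. Summed over the route, libraries held 3545 to 4645 CPM in transgenic libraries and 3636 to 5209.9 CPM in wild-type libraries.

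**Figure D1:**
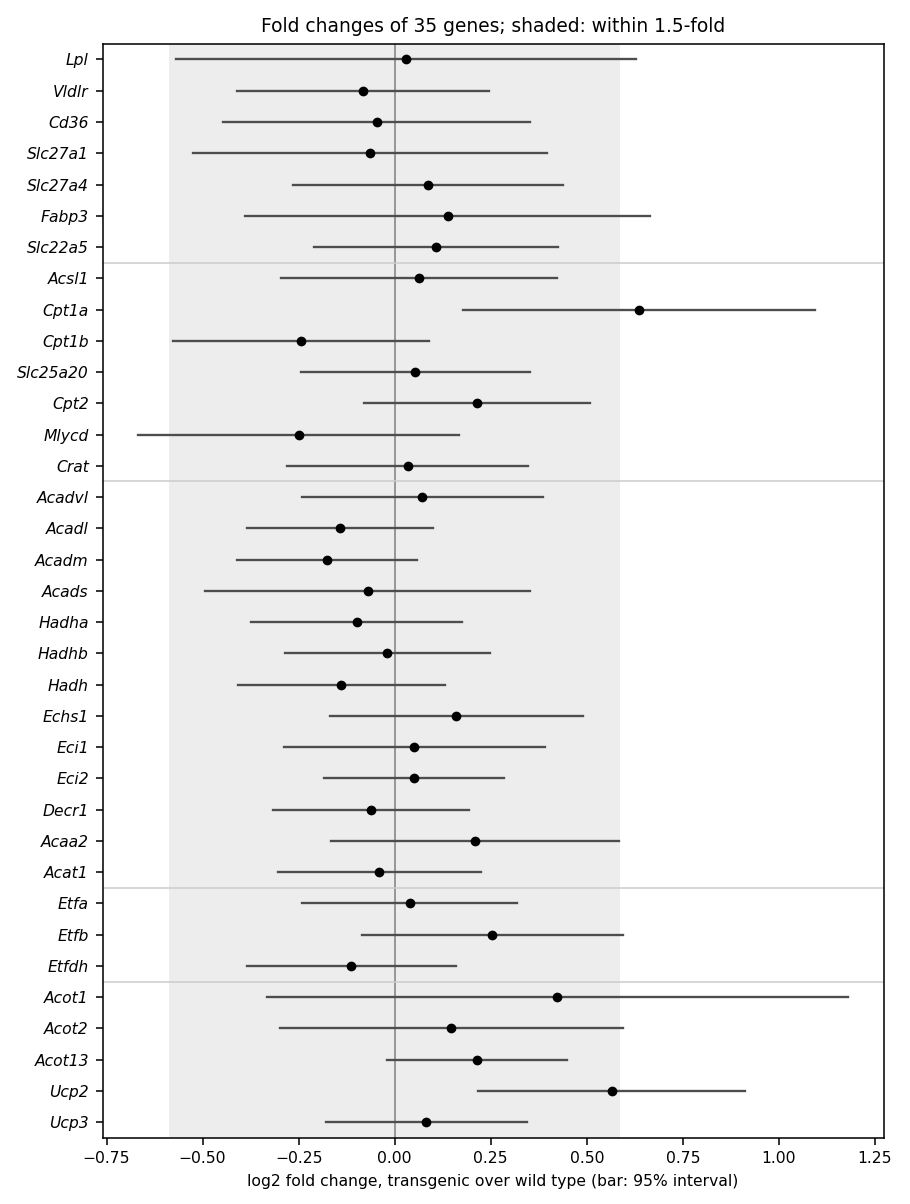
Log2 fold change of each of the 35 genes, transgenic over wild type, with its 95% interval from the edgeR fit; genes run down the page by role and the shaded band marks changes within 1.5-fold. Intervals of 27 genes stay inside the band, and those of Cpt1a and Ucp2 lie wholly above 0.

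At the cell surface, lipoprotein lipase (Lpl) frees fatty acids from circulating triglyceride, the VLDL receptor (Vldlr) binds the particles, and CD36 with the transport proteins FATP1 (Slc27a1) and FATP4 (Slc27a4) brings the acids in. Per length of all its exons, Cd36 had the highest mean of the 35 genes in both groups. It stood at 647, 595, 376, 472 and 603 CPM in transgenic libraries 1 to 5, against 757, 555, 554, 523 and 394 CPM in wild-type libraries 1 to 5. The groups overlapped, with a log2 fold change of -0.047 ± 0.18 (SE; adjusted p by edgeR = 0.929) and a 95% interval of -0.45 to 0.35.

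Lpl varied widely among the libraries of both groups. Its level was 595, 467, 380.2, 307 and 489 CPM in transgenic libraries 1 to 5, against 752, 539, 353, 266 and 281 CPM in wild-type libraries 1 to 5. Wild-type library 1 held the highest and wild-type library 4 the lowest value, so the whole spread lay within one group, and the fold change of 0.030 (log2) had an interval of -0.57 to 0.63.

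Vldlr stood at 291, 312, 289, 357 and 393 CPM in transgenic libraries 1 to 5, against 386, 354, 295, 263 and 441 CPM in wild-type libraries 1 to 5. These values interleave, with a log2 fold change of -0.082 ± 0.15 (SE; adjusted p by edgeR = 0.842). Fabp3, the fatty acid binding protein of heart and muscle cytosol, averaged 102 ± 32.5 CPM in the transgenic group and 92.5 ± 29.8 CPM in wild type (SD, n = 5 each), and transgenic library 3 held its highest value, 154 CPM. Slc27a1 averaged 66.2 ± 17.0 CPM in transgenic muscle and 69.2 ± 20.8 CPM in wild type, Slc27a4 6.94 ± 1.57 CPM in transgenic muscle and 6.53 ± 0.646 CPM in wild type, and Slc22a5, the plasma membrane carnitine transporter OCTN2, 7.81 ± 1.11 CPM in transgenic muscle and 7.22 ± 1.16 CPM in wild type (SD, n = 5 each). Their edgeR adjusted p values were 0.914, 0.844 and 0.774 in that order.

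Long-chain acids are activated by acyl-CoA synthetases and then pass the carnitine shuttle. Acsl1, the main synthetase of muscle, stood at 388, 349, 314, 280.1 and 436 CPM in transgenic libraries 1 to 5, against 468, 319, 304, 339 and 261 CPM in wild-type libraries 1 to 5. The groups overlapped, with a log2 fold change of 0.063 ± 0.17 (SE; adjusted p by edgeR = 0.891).

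Cpt1a encodes the carnitine palmitoyltransferase 1 of liver and most tissues outside muscle, and it had the largest fold change of the route. Its level was 21.1, 26.9, 23.8, 26.1 and 50.6 CPM in transgenic libraries 1 to 5, against 16.4, 17.0, 22.4, 19.7 and 19.9 CPM in wild-type libraries 1 to 5. Transgenic libraries 2 to 5 lay above every wild-type library and transgenic library 1 within their range, and transgenic library 5 stood apart from the others. The log2 fold change was 0.64 ± 0.21 (SE; adjusted p by edgeR = 0.113), and the exact permutation test (two-sided, over every split of 5 against 5 libraries) gave p = 0.0159, unadjusted, where the smallest possible p is 0.00794. Without transgenic library 5 it was 0.36 ± 0.13 (SE; adjusted p by edgeR = 0.161). Hepatocyte markers summed to 6715 CPM in that library and to 591 to 1664 CPM in the other transgenic libraries. With their mean log2 level as a covariate the log2 fold change of Cpt1a was -0.25 ± 0.21 (SE; adjusted p by edgeR = 0.622), below 0. With leukocyte markers as a covariate it was 0.91 ± 0.19 and passed (SE; adjusted p by edgeR = 0.0106), in a fit that called 4.81% of all genes. As every transgenic library lay above every wild-type library in hepatocyte markers, transgene and liver transcripts cannot be told apart for Cpt1a. In tissue RNA, a change in the number of cells of a type and a change of RNA per cell cannot be told apart either.

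Cpt1b, the muscle isoform of the same enzyme, did not pass and was slightly lower on average. It stood at 5.34, 4.38, 7.34, 5.58 and 5.28 CPM in transgenic libraries 1 to 5, against 7.72, 6.95, 5.61, 6.31 and 6.5 CPM in wild-type libraries 1 to 5. The log2 fold change was -0.24 ± 0.15 (SE; adjusted p by edgeR = 0.447; 95% interval -0.58 to 0.088), and without transgenic library 3 the other transgenic libraries, at 4.38 to 5.58 CPM, lay below all wild-type libraries. Although it is the muscle isoform, Cpt1b had fewer counts than Cpt1a: Cpt1a exceeded it 5.52 ± 2.52-fold in transgenic and 2.95 ± 0.717-fold in wild-type muscle in CPM (SD, n = 5 each). Cpt1b lies at chr15:89416405-89425863 (GRCm38, minus strand), and in GENCODE M21 81.4% of its 3372 exon bases also belong to Gm44502, a gene of the same strand. Counters that set aside reads shared by 2 genes lose such reads. The sources used here do not give the counting settings, so the level of Cpt1b is uncertain.

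Cpt2, which rebuilds acyl-CoA on the inner side of the membrane, stood at 44.8, 42.5, 62.8, 40.2 and 52.9 CPM in transgenic libraries 1 to 5, against 43.1, 37.2, 39.7, 49.5 and 40.1 CPM in wild-type libraries 1 to 5. Transgenic library 3 was the highest of all 10, and the log2 fold change was 0.21 ± 0.14 (SE; adjusted p by edgeR = 0.451), and 0.10 ± 0.11 without that library. Slc25a20, the carnitine-acylcarnitine carrier between both enzymes, averaged 59.9 ± 10.9 CPM in the transgenic group and 57.7 ± 6.81 CPM in wild type (SD, n = 5 each). Crat, which joins acetyl groups to carnitine, averaged 265 ± 65.3 CPM in the transgenic group and 259 ± 12.6 CPM in wild type (SD, n = 5 each), with the transgenic SD set largely by transgenic library 3 at 380.0 CPM, against 215 to 246 CPM in the other transgenic libraries.

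Mlycd, malonyl-CoA decarboxylase, removes the malonyl-CoA that inhibits carnitine palmitoyltransferase 1, and its call turned on a single library. It stood at 48.6, 48.2, 96.5, 43.2 and 53.1 CPM in transgenic libraries 1 to 5, against 78.6, 65.9, 67.8, 66.1 and 65.7 CPM in wild-type libraries 1 to 5. Transgenic libraries 1, 2, 4 and 5 lay below every wild-type library, and transgenic library 3 lay above every one. Over all libraries the log2 fold change was -0.25 ± 0.19 (SE; adjusted p by edgeR = 0.561). Without transgenic library 3 it was -0.51 ± 0.086 and passed (SE; adjusted p by edgeR = 0.00525), in a fit that called 8.24% of all genes. With an offset per library for transcript GC content, added after the values were seen, it was -0.35 ± 0.11 (SE; adjusted p by edgeR = 0.0702). Without that library 2 of the 35 genes, Mlycd and Cpt1b, had groups that did not overlap, against 12.4% of all genes.

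The 13 enzymes of the beta-oxidation spiral had small fold changes, and none passed. Log2 fold changes ran from -0.18 for Acadm to 0.21 for Acaa2, 5 above and 8 below 0, with a median of -0.040, and all 13 intervals lay within 1.5-fold. The first step belongs to acyl-CoA dehydrogenases graded by chain length: very long (Acadvl), long (Acadl), medium (Acadm) and short (Acads).

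Acadm stood at 152, 162, 131, 136 and 165 CPM in transgenic libraries 1 to 5, against 188, 153, 169, 179 and 154 CPM in wild-type libraries 1 to 5. The lower transgenic values overlapped the lower wild-type values, with a log2 fold change of -0.18 ± 0.11 (SE; adjusted p by edgeR = 0.434) and a 95% interval of -0.41 to 0.058. Acadl stood at 153, 139, 156, 135 and 163 CPM in transgenic libraries 1 to 5, against 178, 173, 138, 187 and 147 CPM in wild-type libraries 1 to 5. Here too the groups overlapped, at -0.14 ± 0.11 (log2, SE; edgeR adjusted p = 0.570). Acadvl averaged 99.4 ± 22.6 CPM in the transgenic group and 94.5 ± 7.37 CPM in wild type (SD, n = 5 each), or a log2 change of 0.072; 42.9% of its exon bases overlap Dvl2 on the other strand. Acads averaged 36.6 ± 13.3 CPM in the transgenic group and 38.4 ± 4.80 CPM in wild type (SD, n = 5 each). Its transgenic library 3, at 60.2 CPM, lay far from the other transgenic libraries at 27.6 to 32.9 CPM, and without it the log2 fold change was -0.32 ± 0.10 (SE; adjusted p by edgeR = 0.0828).

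Hadha and Hadhb encode the alpha and beta subunits of the trifunctional protein, which hydrates, oxidizes and cleaves long-chain intermediates. Both genes start 85 bases apart on opposite strands of chromosome 5, Hadha at chr5:30118304-30155162 and Hadhb at chr5:30155248-30184593 (GRCm38). Hadha averaged 244 ± 36.9 CPM in the transgenic group and 261 ± 28.9 CPM in wild type (SD, n = 5 each) and Hadhb 175 ± 22.7 CPM in transgenic muscle and 177 ± 22.4 CPM in wild type. The ratio of their CPM within a library was 1.48, 1.36, 1.45, 1.33 and 1.35 in transgenic libraries 1 to 5, against 1.45, 1.59, 1.37, 1.47 and 1.51 in wild-type libraries 1 to 5. It varied by less than either gene did and overlapped between groups.

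The remaining enzymes of the spiral did not pass either. Hadh, the medium and short-chain 3-hydroxyacyl-CoA dehydrogenase, stood at 84.5, 88.5, 114, 76.9 and 103 CPM in transgenic libraries 1 to 5, against 111, 103, 95.2, 114 and 89.9 CPM in wild-type libraries 1 to 5. The groups overlapped, with a log2 fold change of -0.14 ± 0.12 (SE; adjusted p by edgeR = 0.630). Acaa2, the mitochondrial 3-ketoacyl-CoA thiolase, stood at 86.7, 84.8, 134, 71.6 and 102 CPM in transgenic libraries 1 to 5, against 95.1, 72.8, 85.1, 98.4 and 62.9 CPM in wild-type libraries 1 to 5. Transgenic library 3 again held the top value, and the log2 fold change was 0.21 ± 0.17 (SE; adjusted p by edgeR = 0.596), and 0.055 ± 0.14 without that library. Echs1, the short-chain enoyl-CoA hydratase, averaged 66.4 ± 14.3 CPM in transgenic muscle and 59.4 ± 7.72 CPM in wild type, and Acat1, which makes and splits acetoacetyl-CoA, 109 ± 15.9 CPM in transgenic muscle and 112 ± 12.4 CPM in wild type (SD, n = 5 each). The isomerases and the reductase that unsaturated acids need had like means in both groups. Eci1 averaged 49.9 ± 7.95 CPM in transgenic muscle and 48.2 ± 9.79 CPM in wild type, Eci2 54.5 ± 4.02 CPM in transgenic muscle and 52.6 ± 6.28 CPM in wild type and Decr1 89.3 ± 8.51 CPM in transgenic muscle and 93.2 ± 13.4 CPM in wild type (SD, n = 5 each). Log2 fold changes of these 5 ran from -0.062 for Decr1 to 0.16 for Echs1, with edgeR adjusted p from 0.655 to 0.908.

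Acyl-CoA dehydrogenases hand their electrons to electron transfer flavoprotein, a dimer of the Etfa and Etfb products, and from there to its ubiquinone oxidoreductase (Etfdh). Etfb stood at 15.9, 17.3, 29.1, 17.8 and 21.9 CPM in transgenic libraries 1 to 5, against 18.4, 15.9, 17.1, 18.6 and 15.3 CPM in wild-type libraries 1 to 5. Transgenic library 3 exceeded all others, and the log2 fold change was 0.25 ± 0.16 (SE; adjusted p by edgeR = 0.438), and 0.090 ± 0.11 without that library. Etfa, its partner, stood at 87.1, 80.5, 62.5, 73.7 and 99.9 CPM in transgenic libraries 1 to 5, against 88.4, 80.0, 72.4, 82.4 and 69.7 CPM in wild-type libraries 1 to 5. In Etfa transgenic library 3 was the lowest of all 10. The ratio of Etfb to Etfa in CPM was 0.466 in that library, against 0.183 to 0.242 in the other transgenic and 0.199 to 0.236 in wild-type libraries. Etfdh averaged 119 ± 16.2 CPM in the transgenic group and 129 ± 17.8 CPM in wild type (SD, n = 5 each), at -0.11 ± 0.13 on the log2 scale (SE; adjusted p by edgeR = 0.713). In GENCODE M21 58.2% of the exon bases of Etfb also belong to other genes of its strand, Gm45233 and Mir7051, so its counts may be incomplete.

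Thioesterases release free acids from acyl-CoA, and uncoupling proteins are carriers of the inner mitochondrial membrane that are regulated with fatty acid supply. Ucp2, which is widely expressed and abundant in leukocytes, had the smallest p of the route. It stood at 21.5, 31.9, 28.2, 24.3 and 24.1 CPM in transgenic libraries 1 to 5, against 22.2, 21.7, 15.8, 14.8 and 13.5 CPM in wild-type libraries 1 to 5. All transgenic libraries but library 1 lay above every wild-type library, and transgenic library 1 lay below wild-type libraries 1 and 2. The log2 fold change was 0.56 ± 0.16 (SE; adjusted p by edgeR = 0.0642), a fold of 1.48 with a 95% interval of 1.16 to 1.88, and the exact permutation p was 0.0238, unadjusted.

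Whether Ucp2 was called depended on the test. DESeq2 gave it a log2 fold change of 0.56 ± 0.17 (SE; adjusted p = 0.0218), in a test that called 7.9% of all genes, and the authors' deposited table gives 0.56 with an adjusted p of 0.0277, where that table calls 7.29% of its rows. With adipocyte markers as a covariate edgeR passed it at 0.60 ± 0.15 (SE; adjusted p = 0.0349; 6.13% of all genes called). Leukocyte markers, 8 of 10 tested and 1 called higher, summed to 134 to 331 CPM in transgenic libraries and 108 to 204 CPM in wild-type libraries; Cd3e and Cd79a were too low to test. With them as a covariate the log2 fold change of Ucp2 was 0.37 ± 0.17 (SE; adjusted p by edgeR = 0.308), and without transgenic libraries 1 and 2, the highest in those markers, it was 0.53 ± 0.18 (SE; adjusted p by edgeR = 0.143). Over all settings, the hepatocyte covariate included, the log2 fold change of Ucp2 ran from 0.37 to 0.71. Its adjusted p ran from 0.0218 to 0.332 (edgeR, DESeq2 or the authors' table). As hepatocyte markers separate the groups, transgene and liver transcripts cannot be told apart for Ucp2 either.

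Ucp3, the uncoupling protein of skeletal muscle, lies next to Ucp2 on chromosome 7, with 6904 bases between the genes (Ucp3 at chr7:100472990-100486432 and Ucp2 at chr7:100493337-100502020, GRCm38, both plus strand). Ucp3 averaged 141 ± 19.1 CPM in the transgenic group and 133 ± 15.4 CPM in wild type (SD, n = 5 each), at 0.082 ± 0.12 on the log2 scale (SE; adjusted p by edgeR = 0.793) and an interval of -0.18 to 0.34. The whole interval of Ucp3 lay within 1.5-fold, while that of Ucp2 lay above 0.

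Acot13, a thioesterase of the hotdog fold, stood at 28.8, 30.3, 30.2, 29.5 and 34.7 CPM in transgenic libraries 1 to 5, against 27.9, 23.5, 25.4, 31.4 and 24.0 CPM in wild-type libraries 1 to 5. Transgenic library 5 was the highest of all 10, and wild-type library 4 lay above the other transgenic libraries. The log2 fold change was 0.21 ± 0.11 (SE; adjusted p by edgeR = 0.323). Acot1 stood at 5.34, 3.17, 6.71, 2.27 and 5.92 CPM in transgenic libraries 1 to 5, against 4.96, 5.00, 3.72, 2.02 and 1.73 CPM in wild-type libraries 1 to 5. Acot1 was the lowest of the route per length of all its exons, and its groups overlapped, with an interval of -0.33 to 1.18 (log2). Acot2 averaged 35.7 ± 11.2 CPM in the transgenic group and 32.3 ± 6.14 CPM in wild type (SD, n = 5 each). Acot1, a cytosolic enzyme, and Acot2, its mitochondrial relative, are close paralogs 15616 bases apart on chromosome 12, so reads that fit both may have been split or dropped in counting.

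**Figure D2:**
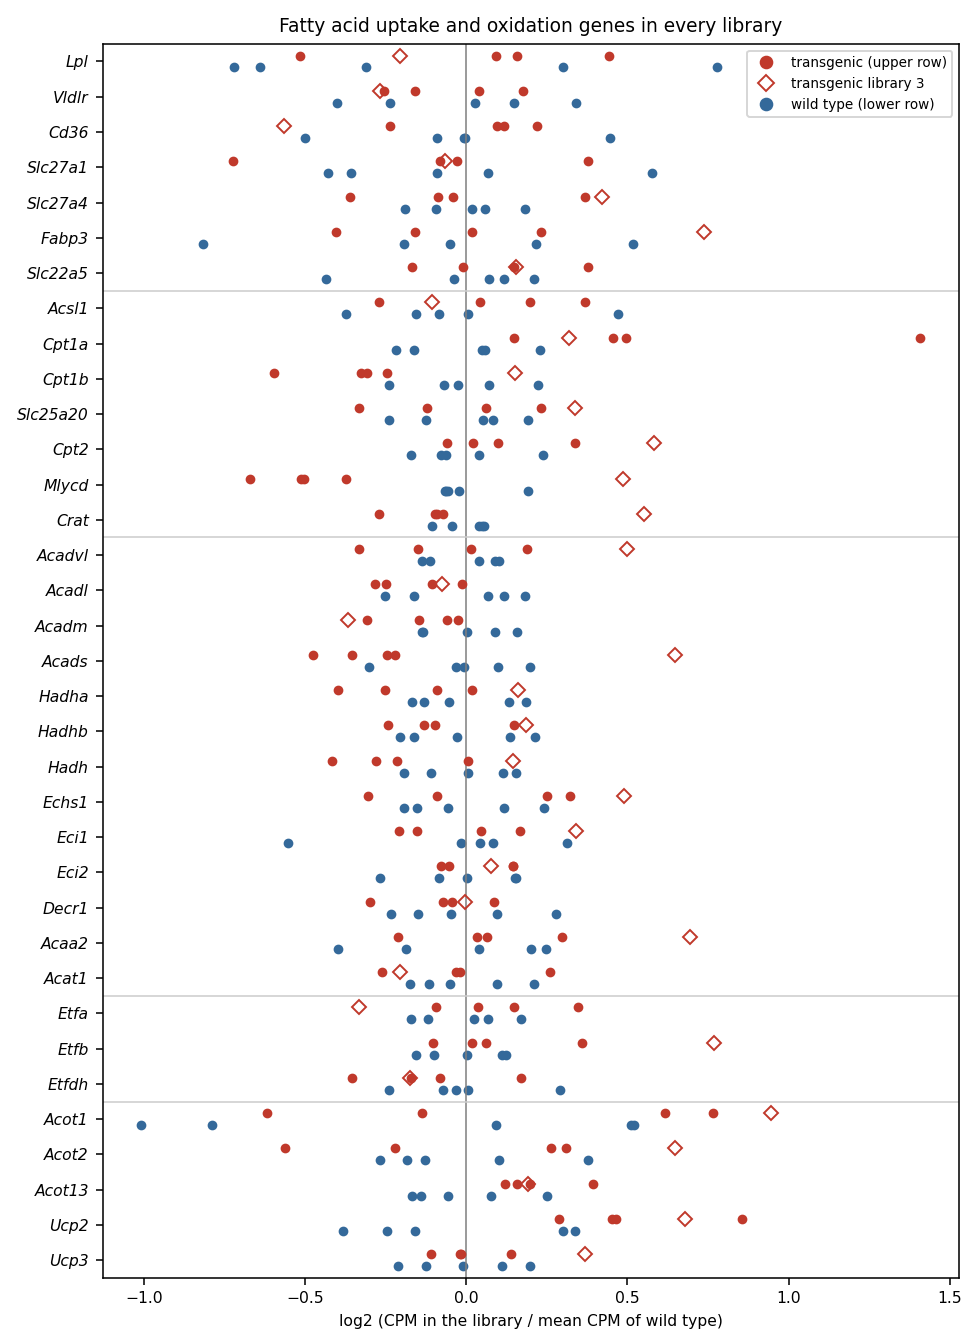
Level of each gene in each library as log2 of its CPM over the wild-type mean CPM, with genes in rows by role, transgenic libraries in the upper and wild-type libraries in the lower line of each row; open diamonds are transgenic library 3. The groups overlap in every row, transgenic library 5 stands out in Cpt1a at 50.6 CPM, and the diamonds lie at the right end of 15 rows.

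Transcript levels can be compared between genes per length, as CPM per kilobase of exon. Cd36 led with 150.0 ± 31.1 CPM per kilobase in transgenic muscle and 155 ± 36.3 CPM per kilobase in wild type (SD, n = 5 each), followed by Fabp3 with 124 ± 39.5 CPM per kilobase in transgenic muscle and 112 ± 36.2 CPM per kilobase in wild type (SD, n = 5 each). The gap between Cd36 and Fabp3 exceeded the SDs in wild type but not in transgenic muscle. In wild type the gap between Fabp3 and the next gene, Acadl, did not exceed the SD of Fabp3. With only exon bases shared with no other gene as length, Fabp3 led in transgenic muscle, at 154 ± 49.1 against 150.0 ± 31.1 CPM per kilobase for Cd36 (SD, n = 5 each). Acadl had 74.4 ± 5.89 CPM per kilobase in transgenic muscle and 82.1 ± 10.4 CPM per kilobase in wild type (SD, n = 5 each), followed by Acaa2 with 63.2 ± 15.8 CPM per kilobase in transgenic muscle and 54.7 ± 9.87 CPM per kilobase in wild type (SD, n = 5 each). The gap between Acadl and Acaa2 exceeded the SDs in wild type but not the SD of Acaa2 in transgenic muscle. From Acaa2 down to Echs1 the order is mostly one of neighbours within an SD of each other. The foot of the order held Ucp2, Cpt1a, Slc22a5, Cpt1b, Slc27a4 and Acot1, each at 2.52 CPM per kilobase or less in wild type. Acot1 had the lowest level, 1.19 ± 0.481 CPM per kilobase in transgenic muscle and 0.889 ± 0.398 CPM per kilobase in wild type (SD, n = 5 each). The order depends on the length used: Lpl was number 9 in wild type by exon union and number 2 by coding length, and Cpt1b moved from place 33 to place 28 when only exon bases shared with no other gene were counted as length. By coding length Acot1 stood at 3.72 CPM per kilobase in transgenic muscle, above Slc27a4 at 3.60 and Cpt1b at 2.41.

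**Figure D3:**
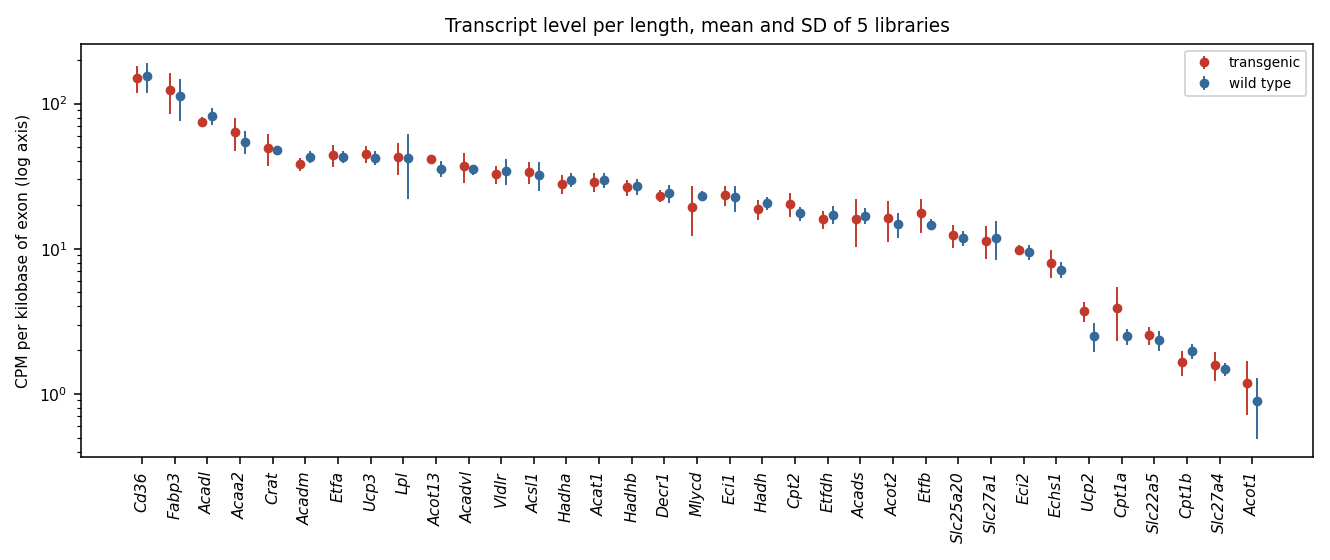
Mean CPM per kilobase of exon union with SD over 5 libraries (log axis) for the 35 genes in the order of their wild-type level, transgenic at left and wild type at right of each gene. Cd36 and Fabp3 stand at the top and Acot1 at the foot, and the ranges of 1 SD around the means overlap for the 35 genes except Ucp2.

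Among the libraries, transgenic library 3 gave the route its own profile, and the profile followed base composition. It held the highest of all 10 values in 15 of the 35 genes (42.9%, against 24.7% of all genes tested) and the lowest in 3, Cd36, Etfa and Acadm (8.57%, against 27.0% of all genes tested). The 15 genes have transcripts of 50.1% to 61.0% GC, with a median of 53.7%, and the other 3 have a median of 45.0%. Of the 17 genes above the median GC content of the route, 51.3%, 16 had a higher log2 CPM in this library than the mean log2 CPM of the other transgenic libraries, and of the 17 below it, 8 were. Across the 35 genes the deviation of the library from the median library had a Spearman rho of 0.785 with GC content, and across 13308 genes one of 0.659. In the other 9 libraries rho ran from -0.390 to 0.0908 across the route and from -0.221 to 0.0497 across all genes. Genes are not replicates, so these are descriptions of single libraries, and their part in any fold change was not tested beyond the fits without this library or with a GC offset.

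The contrast can be read from the coding sequences themselves. The middle 120 bases of the coding sequence of 4 genes are shown 5′ to 3′ from GENCODE M21 transcripts (GRCm38), with G and C in capitals. Mlycd and Acads come from the 15 genes in which transgenic library 3 was the highest of all 10, and Etfa and Cd36 from the 3 in which it was the lowest. Not every gene shows so clear a contrast. Acadm, also lowest in this library, has 49.96% GC in its coding sequence and stood at 0.850-fold of the mean of the other transgenic libraries. Slc27a1, with 59.1% GC in its transcript, stood at 0.998-fold.
Mlycd: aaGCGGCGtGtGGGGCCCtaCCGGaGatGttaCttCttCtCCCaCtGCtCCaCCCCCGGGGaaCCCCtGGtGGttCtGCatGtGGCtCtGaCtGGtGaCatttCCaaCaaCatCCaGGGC
Acads: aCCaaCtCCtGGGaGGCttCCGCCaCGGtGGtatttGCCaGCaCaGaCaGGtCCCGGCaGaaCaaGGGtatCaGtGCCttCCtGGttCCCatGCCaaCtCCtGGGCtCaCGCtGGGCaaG
Etfa: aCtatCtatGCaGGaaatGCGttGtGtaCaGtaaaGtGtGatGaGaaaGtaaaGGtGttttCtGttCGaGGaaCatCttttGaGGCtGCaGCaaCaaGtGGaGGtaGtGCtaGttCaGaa
Cd36: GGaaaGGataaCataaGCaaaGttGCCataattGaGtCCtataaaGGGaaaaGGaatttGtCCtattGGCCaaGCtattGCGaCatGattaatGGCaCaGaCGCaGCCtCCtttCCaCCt
These stretches cover bases 679 to 798 of Mlycd, 559 to 678 of Acads, 439 to 558 of Etfa and 649 to 768 of Cd36, counted from the start codon. Whole coding sequences have 63.8% GC in Mlycd, 59.2% in Acads, 45.5% in Etfa and 41.5% in Cd36. Levels in transgenic library 3 over the mean of the other transgenic libraries were 2.0-fold for Mlycd, 1.96-fold for Acads, 0.732-fold for Etfa and 0.649-fold for Cd36. The genes lie at chr8:119394878-119411102, chr5:115110299-115119346, chr9:55454508-55512243 and chr5:17781690-17888801.

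**Figure D4:**
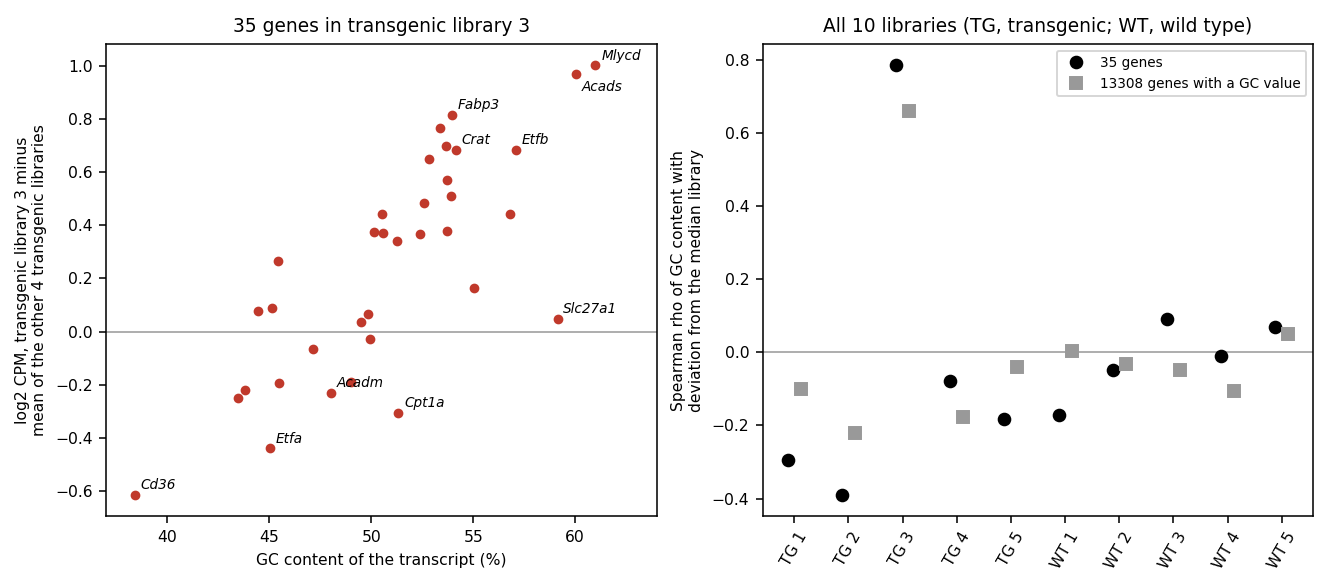
Left, each of the 35 genes by the GC content of its longest coding transcript and its log2 CPM in transgenic library 3 minus the mean of the other 4 transgenic libraries. Right, Spearman rho between GC content and deviation from the median library in each library, transgenic at left and wild type at right; transgenic library 3 stands at 0.785 for the 35 genes and 0.659 for all genes with a GC value.

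Variation among mice that the transgene does not account for was sought in fibre type and in fat. Oxidative slow fibres are known for high fatty acid oxidation, so log2 CPM of each gene was correlated with the level of slow fibre genes, the mean log2 CPM of 11 of them, over the 10 libraries. None of 35 correlations passed after Benjamini-Hochberg adjustment over the 35. By r the highest was that of Lpl, close to that of Acsl1, with r = 0.72 (permutation p = 0.0152, adjusted 0.288) and rho = 0.60 (permutation p = 0.0730, adjusted 0.872). Wild-type library 1 and transgenic library 5 are the farthest from the median slow fibre level. Without both the r of Lpl was 0.50 (exact permutation p = 0.205, adjusted 0.916) and that of Acsl1 0.074, against 0.72 with them. For Acsl1 the relation thus rests on these libraries, and for Lpl it was weaker without them.

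Adipocyte markers, a level taken up after the values had been seen, were set beside the genes in the same way. Cd36 correlated with the mean log2 CPM of 9 adipocyte markers with r = 0.90 (permutation p = 0.000280, adjusted 0.00980) and rho = 0.93 (permutation p = 0.000350, adjusted 0.0122). Lpl gave r = 0.85 (permutation p = 0.00225, adjusted 0.0394) and rho = 0.83 (permutation p = 0.00496, adjusted 0.0434), and Slc27a1 r = 0.82 (permutation p = 0.00348, adjusted 0.0406) and rho = 0.84 (permutation p = 0.00378, adjusted 0.0434). These 3 passed after adjustment by r among the 35. By rho Acsl1 passed as well, with r = 0.72 (permutation p = 0.0194, adjusted 0.17) and rho = 0.84 (permutation p = 0.00351, adjusted 0.0434). Adipocytes also express these genes, and whether fat in the samples underlies the correlations was not tested. The share of all genes that correlate with this level was not computed, so the count is not a trait of the route. Wild-type library 1 and transgenic library 1 are the farthest from the median on this axis; without them r was 0.84 for Cd36 (exact permutation p = 0.0137, adjusted 0.276), 0.68 for Lpl and 0.56 for Slc27a1, and no gene passed after adjustment by r or rho over the 8 libraries left. As deviations from the group means r was 0.90 for Cd36. Transgenic library 3, which deviates with GC content, held the lowest Cd36 value, 376 CPM, at an adipocyte marker level of 4.13 (mean log2 CPM). The correlations were not computed without that library. Within a group 5 libraries are too few for a value.

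**Figure D5:**
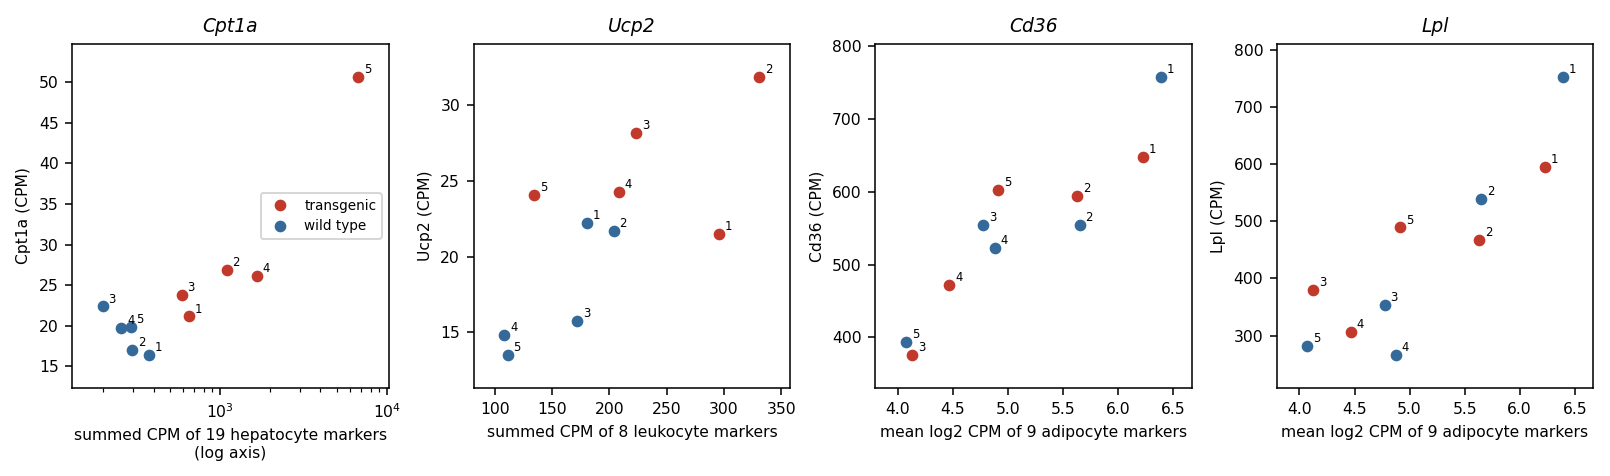
CPM of Cpt1a, Ucp2, Cd36 and Lpl in each library, numbered within its group, against the level of hepatocyte, leukocyte or adipocyte markers in the same library. Cpt1a is highest in transgenic library 5, which has the highest hepatocyte sum of 6715 CPM, and the libraries low in adipocyte markers are low in Cd36.

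Promoters of the route were searched for short motifs near the start site. RefSeq promoters (GRCm38.p6, 250 bases before to 50 after a start) were found for 28 of the 35 genes, 32 promoters in all; motifs were chosen with the promoters in view and searched on both strands. The GC box GGGCGG, the core of sites bound by Sp1-type factors, occurs in 22 of 32 (68.8%), against 35.7% of 32851 mouse promoters. TATAAA occurs in 0, against 13.6% of all. Neither the element known to be bound by PPAR, a direct repeat of AGGTCA with any 1 base between the copies, nor the longer ERR element TNAAGGTCA, which shares AGGTCA with it, is in any of the 32; of all promoters 0.0396% and 1.28% hold them. A missing match says only that these letters are not in this window. The promoters of Ucp2 and Cpt1a, the members nearest the threshold, are printed 5′ to 3′ on the plus strand, with the GC box or its complement in capitals.
Ucp2: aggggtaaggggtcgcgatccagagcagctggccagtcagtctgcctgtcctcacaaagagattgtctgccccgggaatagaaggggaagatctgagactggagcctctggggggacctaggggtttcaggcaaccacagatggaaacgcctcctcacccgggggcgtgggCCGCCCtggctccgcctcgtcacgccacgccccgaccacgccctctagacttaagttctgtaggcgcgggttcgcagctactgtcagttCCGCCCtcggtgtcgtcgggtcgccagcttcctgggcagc
Cpt1a: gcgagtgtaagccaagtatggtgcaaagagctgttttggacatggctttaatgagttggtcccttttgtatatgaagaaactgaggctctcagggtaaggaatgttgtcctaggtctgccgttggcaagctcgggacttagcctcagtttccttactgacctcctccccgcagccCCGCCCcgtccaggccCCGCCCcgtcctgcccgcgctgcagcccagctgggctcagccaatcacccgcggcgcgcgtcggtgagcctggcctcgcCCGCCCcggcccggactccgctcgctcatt
They lie at chr7:100493108-100493407, with 2 boxes, and chr19:3323051-3323350, with 3.

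Around the route, 3 of 47 other tested genes of fatty acid handling were called higher and 1 lower (edgeR adjusted p under 0.05), against 4.28% and 1.05% of all genes. Bbox1, among the 3, passed the filter on low counts only through the transgenic group. The median log2 fold change of the 47 was 0.058. Acad12, a member of the acyl-CoA dehydrogenase family, rose. It stood at 19.5, 16.3, 32.1, 21.0 and 17.2 CPM in transgenic libraries 1 to 5, against 9.37, 9.49, 9.32, 12.1 and 9.68 CPM in wild-type libraries 1 to 5. Every transgenic library lay above every wild-type library, with a log2 fold change of 1.08 ± 0.18 (SE; adjusted p by edgeR = 0.00361), of 0.88 ± 0.11 without transgenic library 3 and of 1.42 ± 0.27 with hepatocyte markers as a covariate, where it passed (SE; adjusted p by edgeR = 0.00111 and 0.0385).

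Bbox1, the last enzyme of carnitine synthesis, was called higher as well, from a level near the floor in wild type. It stood at 0.667, 1.35, 1.27, 1.61 and 5.53 CPM in transgenic libraries 1 to 5, against 0.0788, 0.169, 0.166, 0.325 and 0.505 CPM in wild-type libraries 1 to 5. Bbox1 passed the filter on low counts only through the transgenic libraries, so the gap between the groups is no support for a rise. Transgenic library 5, the highest in hepatocyte markers, also held the highest Bbox1 value. Its log2 fold change was 3.0 ± 0.63 (SE; adjusted p by edgeR = 0.0139), and 2.26 ± 0.42 without transgenic library 5. With hepatocyte markers as a covariate it was 0.69 ± 0.49 (SE; adjusted p by edgeR = 0.565). Bbox1 was no longer called without wild-type library 3 (adjusted p by edgeR = 0.0507).

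Dbi, the acyl-CoA binding protein of the cytosol, was the member of that list that fell. It stood at 34.8, 26.7, 23.1, 21.8 and 24.8 CPM in transgenic libraries 1 to 5, against 57.0, 43.7, 39.4, 43.1 and 32.9 CPM in wild-type libraries 1 to 5. Transgenic library 1 alone overlapped the wild-type range, and the log2 fold change was -0.72 ± 0.16 (SE; adjusted p by edgeR = 0.0187); without transgenic library 4 the call was lost (edgeR adjusted p = 0.0549). Slc16a1, the monocarboxylate transporter MCT1 that carries lactate and ketone bodies, stood at 41.5, 36.8, 43.1, 37.1 and 51.9 CPM in transgenic libraries 1 to 5, against 37, 24.6, 24.8, 25.9 and 24.8 CPM in wild-type libraries 1 to 5. Wild-type library 1 lay within the transgenic range, and the log2 fold change was 0.62 ± 0.14 (SE; adjusted p by edgeR = 0.0225). Slc16a1 was no longer called when wild-type library 2, 3, 4 or 5 was left out, nor without transgenic library 5. With hepatocyte markers as a covariate the log2 fold changes were -0.46 ± 0.27 for Dbi and 0.45 ± 0.24 for Slc16a1 (SE; adjusted p by edgeR = 0.495 and 0.462).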

How the data were processed

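RNA-seq of biceps femoris was compared between 5 transgenic and 5 wild-type libraries. The authors deposited 1 table with raw counts per gene and library, made with TopHat2 2.1, Bowtie2 2.2.6, SAMtools 1.2 and HTSeq 0.6.1 on GRCm38.p4, per the submitters' processing notes. Counting settings, strand and gene model release are not given there. The same table holds the authors' DESeq2 1.10 results: a mean signal of scaled counts, a log2 fold change with its standard error, the Wald statistic as a score, and the p-value with its adjusted value, per the file headers. Those columns were used only where the authors' table is named. Libraries held 13530367 to 19047834 counts, so that counts of the lowest genes limit the precision of their fold changes.

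The counts were filtered with filterByExpr by group, scaled by TMM and tested in R 4.3.3 with edgeR 4.0.16 (quasi-likelihood test). Benjamini-Hochberg adjustment ran over all 13338 genes tested, with a threshold of 0.05. Fold changes came from that fit with the default prior count of edgeR. A prior count of 2 was used for the log2 CPM of permutation tests, correlations and marker covariates. Each standard error is the fold change divided by the root of its F statistic, and 95% intervals were taken from it with the total degrees of freedom of the fit, the prior ones included. The procedure was tested on simulated data. The mice are separate animals per the labels, but columns could not be tied to single mice. Levels per length used GENCODE M21 exons on GRCm38. Correlations used permutation tests with 100000 resamples in NumPy 2.4.6, with ranks from SciPy 1.17.1. Where libraries were left out, every order was enumerated instead.

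The 35 genes and all lists were chosen with earlier results of these data known. Values per library are given for the 12 genes with the smallest p and the 4 most abundant in wild type, and the others by their means; Etfa, which was set beside Etfb after its values were seen, is also given per library. Other fatty acid handling genes are named in the report where they passed the threshold, and a few that did not pass stand among the closing observations (1 gene of that kind is not reported here and was left out of the list and its counts), and the most abundant gene of a marker list where that list is described. Alternatives were DESeq2 1.42.0, other scaling, no filter, a stricter threshold, libraries left out and marker covariates. The GC offset, the leukocyte and adipocyte covariates, the adipocyte level in correlations and the unshared exon length were added after the values were seen.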

Additional observations from a re-analysis of the deposited data

Results flagged for a closer look

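Dixon's test within a group marked 9 of the 80 groups of 5 libraries examined, 6 of them among the 70 groups of the 35 genes, where chance marks about 1 in 20. The share of all genes marked by the same rule was not computed, so these counts show no excess particular to the 35 genes. The cause of these single values was not tested.

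Transgenic library 3 held 3 of the marked values, in genes whose transcripts are rich in G and C. Mlycd, malonyl-CoA decarboxylase, stood at 96.5 CPM there, against 43.2 to 53.1 CPM in the other transgenic libraries. Crat, carnitine acetyltransferase, stood at 380.0 CPM, against 215 to 246 CPM in the others, and Acads, the short-chain dehydrogenase, at 60.2 CPM, against 27.6 to 32.9 CPM. The GC content of these transcripts is 61% for Mlycd, 54.1% for Crat and 60.05% for Acads, and the median of the 35 genes is 51.3%.

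Transgenic library 5 held 3 marked values and also the highest sum of hepatocyte markers. Cpt1a stood at 50.6 CPM in it, against 21.1 to 26.9 CPM in the other transgenic libraries, and Acot13 at 34.7 CPM, against 28.8 to 30.3 CPM. Of the genes around the route, Bbox1 stood at 5.53 CPM in it, against 0.667 to 1.61 CPM.

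In wild-type library 1, Mlycd stood at 78.6 CPM, against 65.7 to 67.8 CPM in the other wild-type libraries, and Slc16a1 at 37 CPM, against 24.6 to 25.9 CPM. In wild-type library 4, Acad12 stood at 12.1 CPM, against 9.32 to 9.68 CPM.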

How the results depend on the processing

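Of all 13338 genes tested, 711 were called. The count was 68 with hepatocyte markers as a covariate, 2.5e+02 (rounded) at an adjusted p of 0.01 and 1158 by the authors' adjusted p, and between 450 (without wild-type library 3) and 1116 (without transgenic library 3) when 1 library was left out. None of the 35 genes was called, and leaving out 1 library gave 0 to 1, the 1 being Mlycd without transgenic library 3. DESeq2 called 1 (Ucp2), as did the authors' table (Ucp2), the leukocyte covariate (Cpt1a) and the adipocyte covariate (Ucp2). The 4 calls among other fatty acid handling genes became 2 (without wild-type library 3) to 6 (without transgenic library 3) when 1 library was left out, 2 without transgenic libraries 4 and 5, 1 with the hepatocyte covariate and 1 at an adjusted p of 0.01. With the GC offset 702 genes were called higher and 337 lower, against 571 higher and 140 lower without it, and DESeq2 with its own scaling called 739 higher and 315 lower. None of the 35 genes correlated with slow fibre genes after adjustment, and 3 did with adipocyte markers by r (4 by rho, and none by either without wild-type library 1 and transgenic library 1). The sign of a fold change differed from the reported one in 62 of 770 combinations of gene and setting, in 22 genes that were called in neither fit. The cause of these differences was not tested. No paired analysis was possible because the labels number the mice of each group differently.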

Other observations

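Of the other fatty acid handling genes that did not pass, 3 bear on the choice of fuel. Pdk4, the pyruvate dehydrogenase kinase that fasting induces in muscle, averaged 2402 ± 333 CPM in transgenic libraries and 2885 ± 301 CPM in wild-type libraries (SD, n = 5 each), a change of -0.26 ± 0.13 (log2, SE; adjusted p by edgeR = 0.322). Acacb, the acetyl-CoA carboxylase that makes malonyl-CoA at mitochondria and so opposes Mlycd, averaged 224 ± 85.8 CPM in transgenic libraries and 270.2 ± 62.2 CPM in wild-type libraries (SD, n = 5 each), a change of -0.27 ± 0.23 (log2, SE; adjusted p by edgeR = 0.596). Oxct1, which lets muscle burn ketone bodies, averaged 208 ± 4.87 CPM in transgenic libraries and 203 ± 23.0 CPM in wild-type libraries (SD, n = 5 each), a change of 0.032 ± 0.10 (log2, SE; adjusted p by edgeR = 0.910), with little spread in the transgenic group.

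Among the synthetases beside Acsl1, the means of Acsl5 and Acsl6 lay on opposite sides of wild type, and neither gene passed. Acsl5 averaged 10.5 ± 2.05 CPM in transgenic libraries and 7.41 ± 1.24 CPM in wild-type libraries (SD, n = 5 each), a change of 0.49 ± 0.16 (log2, SE; adjusted p by edgeR = 0.110). Acsl6 averaged 9.81 ± 0.970 CPM in transgenic libraries and 13.6 ± 3.18 CPM in wild-type libraries (SD, n = 5 each), a change of -0.47 ± 0.16 (log2, SE; adjusted p by edgeR = 0.111). Acsl6 was called when wild-type library 2 was left out. These genes were picked after their values were seen.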
